A study of Mus musculus with 4 samples.

Results

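Drop-seq counts were examined for 7 genes of the pericellular serine protease system of squamous epithelium. They were the proteases Tmprss11b, St14 and Prss8 and the protease inhibitors Spink5, Spink12, Spint1 and Spint2. These were chosen by name with earlier results of these data known, so counts of them set against all genes only describe them. All 7 were found among the 25071 gene symbols of the deposited matrices. The cells were vaginal epithelium of C57BL/6 mice, taken either from ovary-intact animals (labelled WT) or from animals whose ovaries had been removed by surgery (OVX). Each condition has 2 libraries, and a library holds pooled cells of 5 mice per the series text; no age or hormone level is given, and the cycle stage of the intact mice is not given either. The text of the series does not say whether the duplicates of a condition came from separate pools, so p-values between conditions rest on the scatter of 2 libraries each, which may be technical alone. Drop-seq captures single cells in droplets and counts transcripts from their 3' ends by unique molecular identifiers (UMIs), so levels are given as UMIs per 1000000 UMIs of the same cells (CPM) and are not divided by gene length.

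St14 encodes matriptase, a membrane-anchored serine protease of epithelial cells, and Prss8 encodes prostasin, a protease anchored to the membrane by a lipid that acts together with matriptase. Spint1 (HAI-1) and Spint2 (HAI-2) are Kunitz-type inhibitors in the membrane that restrain both enzymes. Spink5 encodes LEKTI, a secreted inhibitor with many domains that holds kallikrein proteases in check in skin and other stratified epithelia, where unrestrained activity cuts the junctions between cornified cells. Spink12 belongs to the same Kazal-type family, and Tmprss11b to the HAT/DESC group of transmembrane serine proteases found in squamous epithelia.

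Positions of 5 of the genes on the mouse genome are given here (GRCm38, the same sequence as mm10; GENCODE vM21). Tmprss11b spans chr5:86657631-86676362 on the minus strand, St14 chr9:31089402-31131853 on the minus strand and Prss8 chr7:127925716-127930104 on the minus strand. Spint1 spans chr2:119237362-119249527 on the plus strand and Spint2 chr7:29256323-29281912 on the minus strand. No stretch of 50 bases in the last 500 bases of a transcript of any of the 7 occurred in another gene on the same strand. The end of Prss8 overlaps that of Kat8 on the other strand, with 16.2% of its end stretches shared in antisense. Whether the counting used strand is not given in the sources used here, so Prss8 counts may include Kat8 reads.

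The stretches just upstream of the start are shown for the 3 members with a RefSeq promoter entry that could be shown, because in whole libraries Tmprss11b fell after ovariectomy while both OVX libraries had more Spint1 and Spint2 than either WT library. They are from RefSeq (GRCm38.p6), 5′ to 3′ on the strand of the gene, cut where a transcript of the gene begins in either annotation. Capitals mark the GC box GGGCGG on either strand. They cover chr2:119237110-119237359 for Spint1, chr7:29282060-29282227 for Spint2 and chr5:86676363-86676548 for Tmprss11b.
Spint1: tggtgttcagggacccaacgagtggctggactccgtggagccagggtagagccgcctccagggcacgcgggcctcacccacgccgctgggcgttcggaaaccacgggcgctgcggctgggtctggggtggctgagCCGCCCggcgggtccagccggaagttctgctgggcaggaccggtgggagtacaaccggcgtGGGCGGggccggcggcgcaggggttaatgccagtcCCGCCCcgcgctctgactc
Spint2: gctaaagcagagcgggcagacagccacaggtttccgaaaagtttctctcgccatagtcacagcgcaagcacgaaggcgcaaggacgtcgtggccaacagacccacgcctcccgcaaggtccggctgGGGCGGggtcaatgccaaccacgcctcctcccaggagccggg
Tmprss11b: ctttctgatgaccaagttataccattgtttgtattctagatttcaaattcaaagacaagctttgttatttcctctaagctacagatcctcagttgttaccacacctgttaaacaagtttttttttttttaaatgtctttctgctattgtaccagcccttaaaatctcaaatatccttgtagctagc
The 250 bases upstream of the RefSeq start held 72.8% G and C and 26 CpG pairs in Spint1, and 69.6% and 24 in Spint2. Tmprss11b held 34.4% and 2 CpG pairs, against medians of 52.4% and 6 over 32851 promoters. Spint1 and Tmprss11b were thus near opposite ends of the range of G and C content, at percentiles 94.0 and 4.25. The stretch of Spint1 had 3 GC boxes, that of Spint2 had 1 and that of Tmprss11b had none, while 32.7% of all promoters had at least 1. The estrogen response element (GGTCA, any 3 bases, then TGACC), the AP-1 site TGANTCA, the TATA box TATAAA and the grainyhead-like site AACCGGTT were searched on both strands and occurred in none of the 3. They were found in 0.0639%, 6.75%, 12.4% and 0.116% of all promoters. All these shares were counted over 250 bases, whereas the stretches searched in Spint2 and Tmprss11b were cut to 168 and 186 bases.

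After filtering, 2979 and 1987 cells were kept in WT libraries 1 and 2, and 1573 and 1907 in OVX libraries 1 and 2, with total counts of 798916 to 5830417 UMIs per library. WT library 1 was the deepest (median of 1597 UMIs per cell) and OVX library 1 the shallowest (435). No more than 5 barcodes of kept cells were shared by any pair of libraries. Cells were assigned to basal, suprabasal or luminal layers from lists of 12, 14 and 11 marker genes, none of which is a member. Basal cells numbered 1656 and 461 in WT and 90 and 238 in OVX; suprabasal cells numbered 749 and 611 in WT but only 16 and 21 in OVX, and luminal cells 15 and 17 in WT and 192 and 358 in OVX. Between 18.3% and 44.8% of WT cells and between 65.7% and 79.6% of OVX cells met no gate. Mitochondrial genes took 4.00% to 4.18% of UMIs in WT and 9.25% to 9.86% in OVX, and the nuclear RNA Malat1 took 0.336% to 0.465% against 1.81% to 2.50%. Summed immune markers (15 genes, 13 to 15 detected per library) came to 198 and 219 CPM in WT and 939 and 558 in OVX. The 12 stromal and endothelial markers in the files summed to 4.80 and 36.8 in WT and 215 and 198 in OVX, with Col1a1, Col3a1 and Lum at 0 in WT library 1. These shares and marker levels move with the condition in every result below that compares OVX with WT, and apart from the values given there their part in the results was not tested.

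In whole libraries, the Kazal-type inhibitor Spink12 and the protease Tmprss11b were far lower after ovariectomy, and they were the only members that passed the test. The 4 genes of the matriptase and prostasin system did not pass: Spint1, Spint2 and Prss8 had higher levels in both OVX libraries than in either WT library, and St14 overlapped between the conditions. Spink5, the most abundant member in every library, also overlapped. The count called was 2 of 7 lower and 0 of 7 higher by edgeR's quasi-likelihood test at an adjusted p of 0.05, where 5.11% of the 11495 genes tested were called, 2.52% lower and 2.58% higher. The conditions did not overlap for 5 of 7 members, a share to be read against 50.3% of all genes tested. The median log2 fold change of the members was 0.26, against -0.03 over all genes. In sums over whole libraries, fewer cells of a type and less RNA per cell cannot be told apart.

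**Figure D1:**
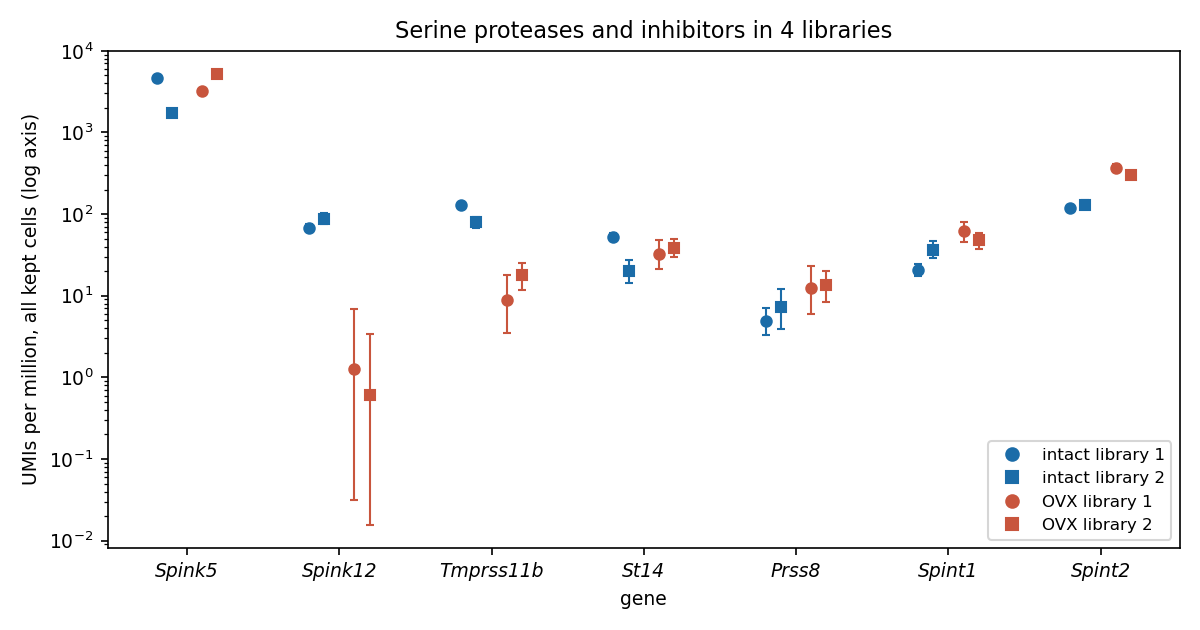
Levels of the 7 genes in the 4 libraries, as CPM over all kept cells on a log axis, with exact Poisson 95% intervals that cover counting error only. Spink12 and Tmprss11b sat lower in both OVX libraries than in both WT libraries, whereas Spink5 and St14 were mixed.

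Of the proteases, Tmprss11b stood at 129 and 79.3 CPM in WT libraries 1 and 2 and at 8.76 and 17.7 in OVX libraries 1 and 2. Both OVX libraries were below both WT libraries. The log2 fold change was -3.04 ± 0.52 (SE, n = 2 libraries against 2; edgeR adjusted p = 0.0187). The call was lost without OVX library 1 (-2.63, edgeR adjusted p = 0.113), and over 13 alternatives the adjusted p ranged from 1.92e-16 to 0.113. The OVX values rest on 7 and 29 UMIs, and the WT values on 751 and 153.

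St14, which encodes matriptase, stood at 52.5 and 20.2 CPM in WT and at 32.5 and 38.5 in OVX. The OVX libraries lay between the WT libraries, which differed from each other 2.60-fold. The log2 fold change was -0.18 ± 0.52 (SE; edgeR adjusted p = 0.883), and it turned to 0.73 without WT library 1. Prss8, which encodes prostasin, was the rarest member, with 4.97 and 7.25 CPM in WT and 12.5 and 13.4 in OVX, from 10 to 29 UMIs per library. Its OVX libraries were both higher, but the difference did not pass the test (log2 fold change 0.99 ± 0.52, SE; edgeR adjusted p = 0.335).

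Among the inhibitors, Spink12 was the member with the largest difference. It stood at 67.7 and 88.1 CPM in WT, from 395 and 170 UMIs, and at 1.25 and 0.611 in OVX, from 1 UMI in each library. The pooled WT level was 88.7 times the OVX level (exact 95% interval 24.4 to 734, counting error only). The log2 fold change was -6.58 ± 0.63 (SE, n = 2 against 2; edgeR adjusted p = 0.00368), and it stayed between -6.96 and -5.62 under 13 alternatives, all of them past the threshold.

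Spink5 reached 4683 and 1721 CPM in WT and 3179 and 5181 in OVX. The highest and the lowest WT and OVX values interleaved, and the WT libraries differed from each other 2.72-fold. The log2 fold change was 0.26 ± 0.58 (SE; edgeR adjusted p = 0.854), and it changed sign when WT library 2 (-0.35) or OVX library 2 (-0.24) was left out.

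Spint2, the HAI-2 gene, stood at 119 and 130 CPM in WT and at 369 and 302 in OVX. The libraries of each condition were close together and the conditions were well apart. The log2 fold change was 1.29 ± 0.39 (SE), with an unadjusted p of 0.0105 and an edgeR adjusted p of 0.109. Spint1, the HAI-1 gene, was lower in level, with 20.8 and 36.8 in WT and 61.3 and 47.7 in OVX. Its OVX libraries were both higher, and the log2 fold change of 0.79 ± 0.44 (SE) did not pass the test (edgeR adjusted p = 0.363). Without the cells gated as immune or stromal, the log2 fold change was 1.34 for Spint2, 0.83 for Spint1, -6.53 for Spink12 and -2.99 for Tmprss11b. Spink12 and Tmprss11b passed there (edgeR adjusted p = 0.00321 and 0.0193) and Spint1 and Spint2 did not (0.342 and 0.0992).

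The balance of inhibitor to protease transcripts within a library was taken as a ratio of UMI counts, which is to be compared between libraries and not read as a ratio of molecules in the cell. There were 23.9 and 17.9 Spint2 UMIs per Prss8 UMI in WT and 29.5 and 22.5 in OVX, so the 2 conditions interleaved. Per St14 UMI there were 2.27 and 6.44 Spint2 UMIs in WT and 11.3 and 7.86 in OVX. The OVX ratios were both higher than the WT ratios, but the 95% intervals of OVX library 1 (7.59 to 17.7) and OVX library 2 (6.04 to 10.4) both overlapped that of WT library 2 (4.58 to 9.27). For Spint1 per St14 UMI the ratios were 0.395 and 1.82 in WT and 1.88 and 1.24 in OVX, and WT library 1 alone stood apart from the other 3.

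The layers of the intact epithelium were compared next, within each library. Transcripts of Spink5, Spink12, Tmprss11b, Spint1 and Spint2 were all more frequent in suprabasal than in basal cells of WT mice, whereas the values of St14 lay close together in both layers. Of the 6 members tested, 5 were higher and none was lower (edgeR with the library as a block), where 18.1% of the 9405 genes tested were called, 8.16% higher and 9.95% lower in suprabasal cells. The median log2 difference was 1.37 over the tested members and 0.00 over all genes. Keratin levels describe the gated cells but do not test the gates, since Krt10 and Krt14 are among the markers. Krt10, a keratin of differentiating cells, stood at 5625 and 4490 CPM in suprabasal cells and at 162 and 145 in basal cells. The basal keratin Krt14 was alike in both (19156 and 18437 against 17376 and 18323). The p-values of this model rest on 2 residual degrees of freedom over 9 sums and on a common dispersion of 0.0030, so they reflect mostly counting error within these libraries.

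**Figure D2:**
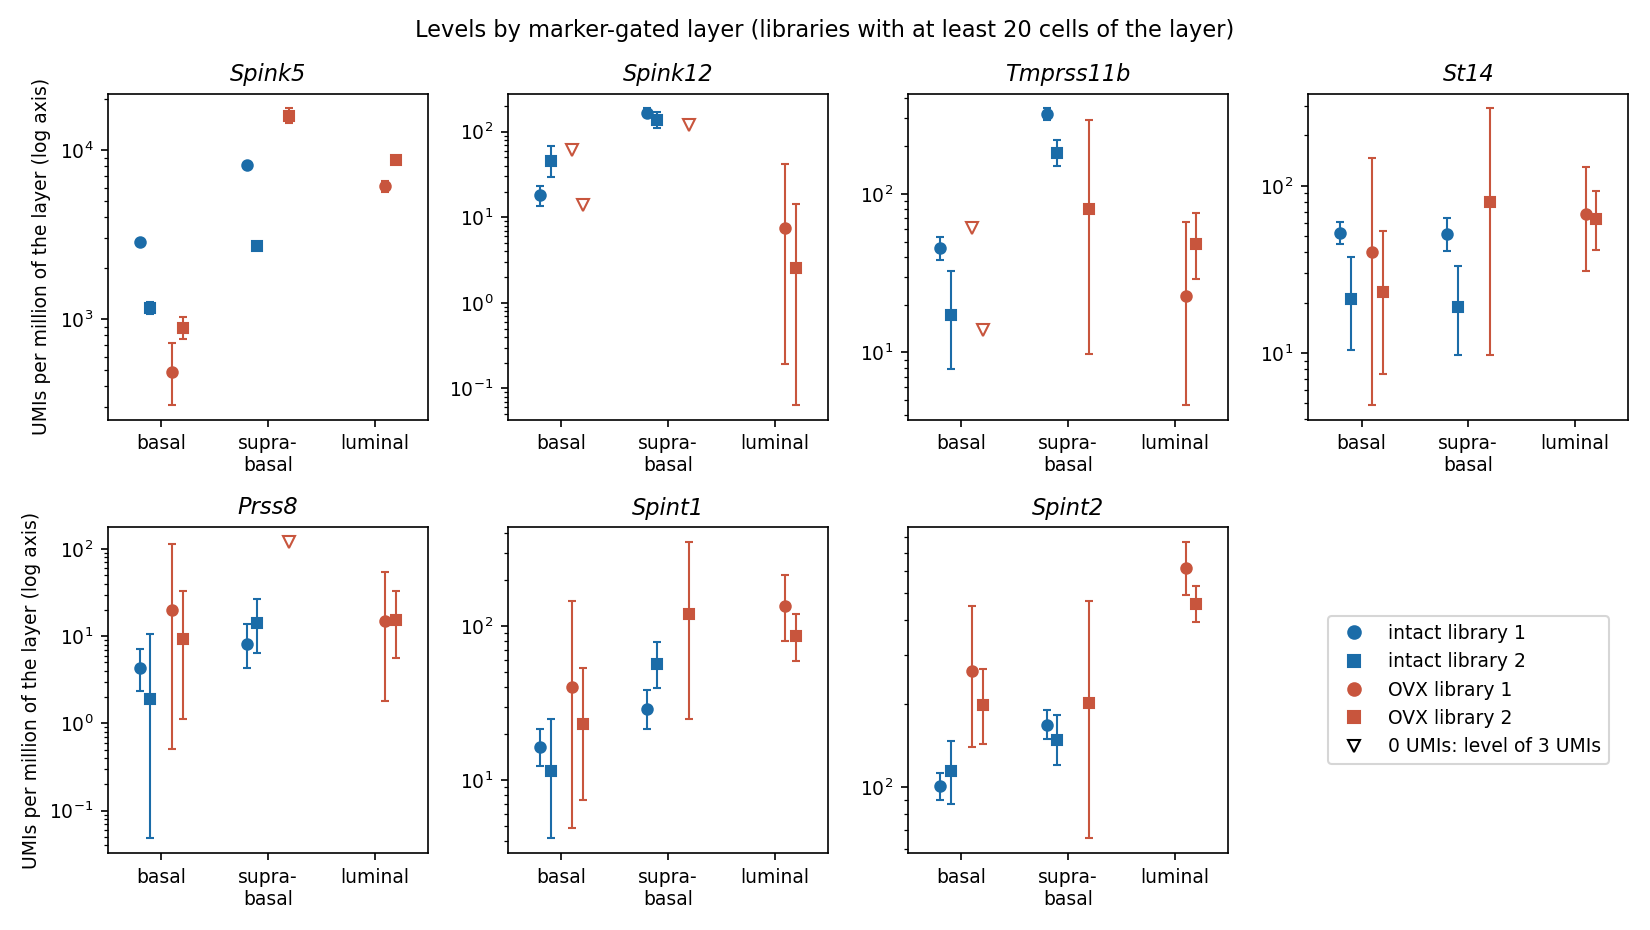
Levels of each gene by marker-gated layer and library, as CPM of the cells of the layer on a log axis, with exact Poisson 95% intervals. Triangles stand for 0 UMIs, drawn at the level of 3 UMIs; Spink5 was higher in every suprabasal or luminal point drawn than in basal cells of the same library (WT luminal cells, under 20 per library, are not drawn), and Spink12 had no UMI in OVX basal or suprabasal cells.

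Tmprss11b had the steepest step of the 2 member proteases tested, from 45.4 to 318 CPM between basal and suprabasal cells of WT library 1 and from 17.1 to 181 in WT library 2. That is 7.0-fold and 10.6-fold, or a log2 difference of 2.97 ± 0.15 (SE; edgeR adjusted p = 5.54e-80). Suprabasal cells held 68.3% and 75.2% of its UMIs. St14 stood at 52.1 and 51.4 CPM in basal and suprabasal cells of WT library 1 and at 20.9 and 18.9 in WT library 2. Suprabasal cells had 0.987 times the basal level in the first library (95% interval 0.750 to 1.29) and 0.903 times in the second (0.365 to 2.26). The log2 difference of 0.07 ± 0.22 (SE) did not pass the test (edgeR adjusted p = 0.898), and the sign turned without WT library 1 (-0.06) and without a margin between gates (-0.0037). Prss8 was too rare to be tested by layer. Its level was 4.27 and 8.05 in basal and suprabasal cells of WT library 1, and 1.90 and 14.2 in WT library 2, from 1 to 14 UMIs each.

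Spink12 rose from 18.0 to 167 CPM in WT library 1 and from 45.7 to 137 in WT library 2, a log2 difference of 2.90 ± 0.19 (SE; edgeR adjusted p = 2.13e-50). The libraries differed in the size of the step, 9.27-fold in the first and 3.0-fold in the second, and the log2 difference was 1.67 without WT library 1. The basal level of WT library 2 came from 24 UMIs in 6 cells, with 18 of them in 1 cell. The smaller step in that library thus rests largely on 1 basal cell. Few cells carried the transcript. In WT library 1 it was found in 102 of 2979 cells with 3.87 UMIs per positive cell and up to 23 in one cell, and in WT library 2 in 60 of 1987 cells with 2.83 UMIs per positive cell and up to 18. Tmprss11b was spread more thinly, with 1.57 and 1.19 UMIs in each of its 479 and 129 positive cells. The immune cells of the WT libraries, which should lack both genes, had 0 UMIs of either, where 3 UMIs would be 139 and 703.6 CPM. Those floors lay above the whole-library levels of Spink12 (67.7 and 88.1) and Tmprss11b (129 and 79.3). The absence of UMIs there thus cannot show whether free RNA reached the basal cells.

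Spink5 rose from 2842 to 8129 CPM in WT library 1 and from 1162 to 2689 in WT library 2, or 2.86-fold and 2.31-fold (log2 difference 1.49 ± 0.09, SE; edgeR adjusted p = 4.11e-59). WT library 1 was higher than WT library 2 in both layers, as in the whole libraries. Immune cells held Spink5 at 1762 and 469 CPM in these libraries, from 38 and 2 UMIs, below both layers. The part of background in the Spink5 level of either layer was not tested. Spint2 rose from 101 to 168 in WT library 1 and went from 114 to 148 in WT library 2 (0.75 ± 0.14, SE; edgeR adjusted p = 1.75e-06). In the second library the 95% interval of the ratio, 0.929 to 1.82, included 1, and the call was lost without WT library 1 (edgeR adjusted p = 0.724, the highest over 9 alternatives; the lowest was 1.15e-07). Spint1 went from 16.5 to 29.1 and from 11.4 to 56.7 (1.26 ± 0.29, SE; edgeR adjusted p = 0.000156). Its call was lost without WT library 2 (0.324, the highest over 9 alternatives; the lowest was 2.33e-05).

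After ovariectomy the upper gate that held enough cells was the luminal one. Krt18, a simple-epithelium keratin and itself a marker of that gate, was at 1197 and 748 CPM in luminal cells and at 60.6 and 82.8 in basal cells. Spink5, Spint1, Spint2 and Tmprss11b were higher in OVX luminal than in OVX basal cells, 4 of the 6 members tested, and none was lower. Of all 9405 genes, 3.85% were called in this comparison, 2.71% higher and 1.14% lower in luminal cells.

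Spink5 had the largest step of the members with UMIs in both layers, from 485 to 6092 CPM in OVX library 1 and from 887 to 8763 in OVX library 2. The ratios were 12.6 and 9.88, and the log2 difference was 3.44 ± 0.13 (SE; edgeR adjusted p = 1.51e-153). Spink5 in immune cells stood at 2843 CPM in OVX library 1, above the basal level of 485. The tenth of immune cells with the most Spink5 held 86.4% of those UMIs. That immune level thus rests on few cells and cannot show whether the basal level was above background. In OVX library 2 the basal level of 887 was above the 268 CPM of immune cells, which came from 5 UMIs. The part of background in the basal level of either library was not tested. In WT, the 15 and 17 luminal-gated cells held Spink5 at 1774 and 1270 CPM, below and above the 2842 and 1162 CPM of basal cells in the same libraries. Spint2 rose from 263 to 617 in the first and from 198 to 459 in the second, which was 2.35-fold and 2.32-fold (1.29 ± 0.22, SE; edgeR adjusted p = 5.27e-07). Spint1 went from 40.4 to 136 and from 23.0 to 86.2 (1.93 ± 0.55, SE; edgeR adjusted p = 0.0156), with 2 and 5 UMIs in basal cells. That call was lost without WT library 2 (edgeR adjusted p = 0.0798), without OVX library 2 (0.444) and with a gate margin of 0.3 (0.368), the range over 9 alternatives being 1.65e-05 to 0.444. Tmprss11b had 3 and 19 UMIs in luminal cells and none in basal cells. The pooled luminal level was 3.71 times a basal floor of 3 counts over the group. The exact lower limit of the pooled ratio was 2.77, for counting error only. Within a library, the ratio to such a floor was 0.373 in OVX library 1 and 3.49 in OVX library 2. The call of Tmprss11b as higher in luminal cells had an edgeR adjusted p of 0.00194. It was lost without OVX library 2 (edgeR adjusted p = 0.524) and with the margin of 0.3 (0.167), over a range of 0.000653 to 0.524. St14 stood at 40.4 and 23.0 CPM in basal cells and at 67.8 and 63.4 in luminal cells, with higher values in luminal cells of both libraries that did not pass the test (1.34 ± 0.59, SE; edgeR adjusted p = 0.255). The only 2 Spink12 UMIs of the OVX libraries were in luminal cells, 1 in each library. Prss8 was not tested, with 1 and 2 UMIs in basal and 2 and 6 in luminal cells.

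The small set of OVX cells in the suprabasal gate was below the minimum of 20 cells in OVX library 1 and was not tested in the planned comparison. Their Spink5 level was 7122 CPM in 16 cells of OVX library 1 (exact 95% interval 5448 to 9149, counting error only) and 16008 in 21 cells of OVX library 2 (14474 to 17661). These levels were 14.7 and 18.0 times those of basal cells of the same libraries, with the limits on the basal levels given above. The same cells had no Spink12 UMI, where 3 UMIs would be 350.3 and 121 CPM, and 0 and 2 Tmprss11b UMIs. Krt10, a marker of the gate, stood at 234 and 563 CPM in them, below its 5625 and 4490 in WT suprabasal cells.

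Basal cells were the one layer with enough cells in all 4 libraries to compare OVX with WT. None of the 3 members tested there, Spink5, St14 and Spint2, passed the test, where 3.57% of the 6081 genes tested were called (1.13% higher, 2.43% lower). Without adjustment, Spink5 had a p of 0.0109 by edgeR, Spint2 of 0.0889 and St14 of 0.495. The basal-gated OVX cells held less Krt14 (3837 and 3260 CPM) than the WT ones (17376 and 18323), and their median depth was 516 and 846.5 UMIs per cell against 1651 and 964. Neither the keratin level nor the depth was tested for its part in the values that follow.

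Spink5 stood at 2842 and 1162 CPM in WT basal cells and at 485 and 887 in OVX basal cells. Both OVX libraries were below both WT libraries, and the log2 fold change was -1.57 ± 0.57 (SE; edgeR adjusted p = 0.149). The difference passed without WT library 2 (-2.06, edgeR adjusted p = 0.00171) and with a crossed block of the libraries that was added after the data were seen (-1.57, 0.00375), and the adjusted p ranged from 0.00171 to 0.791 over 13 alternatives. Spint2 stood at 101 and 114 in WT and at 263 and 198 in OVX basal cells, with both OVX libraries higher (0.99 ± 0.56, SE; edgeR adjusted p = 0.439). St14 overlapped, at 52.1 and 20.9 in WT and 40.4 and 23.0 in OVX (-0.54 ± 0.77, SE; edgeR adjusted p = 0.831). Of these 3 members, 2 did not overlap between the conditions, against 45.2% of all genes tested. Spink12 and Tmprss11b had too few counts for the test. Spink12 stood at 18.0 and 45.7 in WT basal cells and had no UMI in OVX. Its pooled WT level was 1.94 times an OVX floor of 3 counts over the group. The exact lower limit of the WT to OVX ratio was 1.54, for counting error only. Tmprss11b stood at 45.4 and 17.1 and had no UMI in OVX basal cells. Its pooled WT level was 3.69 times the same floor, with an exact lower limit of 2.97 for the WT to OVX ratio. Spint1 (16.5 and 11.4 in WT, 40.4 and 23.0 in OVX) and Prss8 (4.27 and 1.90 in WT, 20.2 and 9.20 in OVX) had 7 and 3 UMIs in all OVX basal cells and were not tested.

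How Spink5 was spread over single cells was compared after each cell had been thinned to 400 UMIs, leaving out shallower cells (0 and 43 in WT, 650 and 43 in OVX). Cells without a Spink5 UMI made up 39.9% and 61.9% of cells in WT libraries 1 and 2, against 69.1% and 68.9% in OVX. Cells with 8 or more of the 400 UMIs from Spink5 made up 3.26% and 0.103% in WT and 4.77% and 9.12% in OVX. Both OVX libraries thus had more cells at 0 and more cells at the top than either WT library, with 11.5% and 11.8% of cells at 1 to 2 UMIs against 33.4% and 31.5% in WT. The tenth of cells with the most Spink5 held 40.7% and 48.3% of its thinned UMIs in WT and 61.0% and 67.1% in OVX. With 2 libraries against 2, an exact permutation test cannot give a two-sided p below 0.333, so none was run on these shares.

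**Figure D3:**
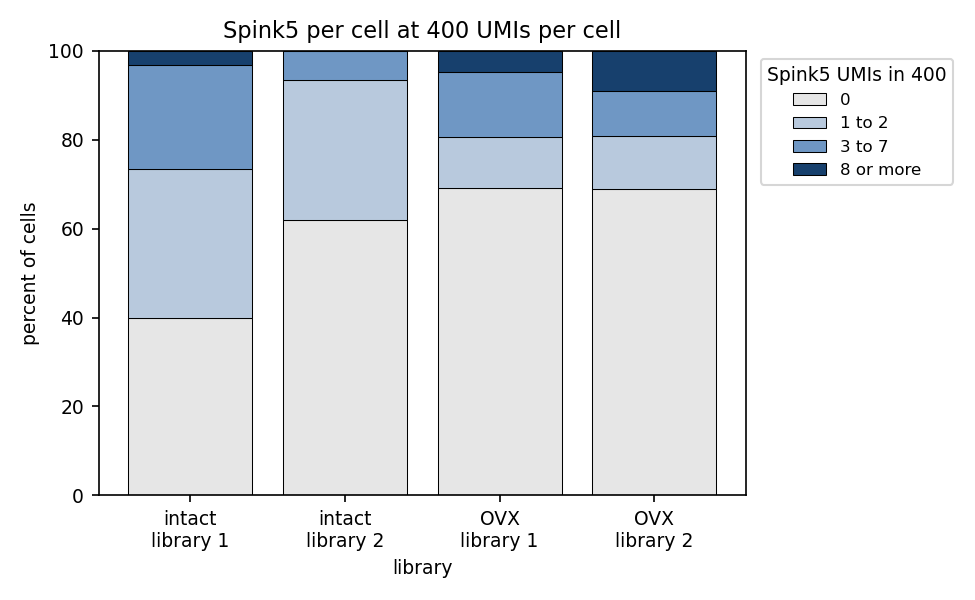
Share of cells by number of Spink5 UMIs after thinning each cell to 400 UMIs, as percent of the cells of each library. The OVX libraries had 69.1% and 68.9% of cells at 0 and 4.77% and 9.12% at 8 or more UMIs, both above the WT libraries.

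By layer, 49.2% and 32.7% of thinned WT basal cells and 81.7% and 56.1% of WT suprabasal cells had a Spink5 UMI (75.7%, 49.7%, 94.0% and 72.5% before thinning). In OVX, 53.8% and 46.6% of luminal cells did, but only 9.68% (exact 95% interval 3.64 to 19.9) and 14.5% (10.3 to 19.7) of basal cells; before thinning these were 54.7%, 54.2%, 11.1% and 21.8%. Immune cells, which should lack the gene, had a Spink5 UMI in 2 of 14 and 1 of 6 thinned cells in WT and in 2 of 8 and 2 of 24 in OVX, at median depths of 413.5 to 1060 UMIs before thinning. The shares in OVX basal cells lay within the range of the immune cells, so the shares cannot tell them from free RNA. Those of the upper layers were above it. The Spink5 level of the immune cells was 1762 and 469 CPM in WT and 2843 and 268 in OVX. The tenth of immune cells with the most Spink5 held 81.6% of these UMIs in WT library 1 and 86.4% and 60.0% in OVX, so the levels rest on few cells. The 485 and 887 CPM of OVX basal cells lay below the immune level in OVX library 1 and above it in OVX library 2. In OVX library 2 the exact 95% intervals did not overlap (767 to 1022 against 87.2 to 627, counting error only). Suprabasal cells supplied 48.1% and 51.4% of all Spink5 UMIs in WT. Luminal cells supplied 31.9% and 40.8% in OVX, where the ungated cells held a further 63.9% and 52.2%.

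Other genes of the protease system were counted by lists of proteases, inhibitors, and receptors and substrates, also chosen with earlier results of these data known. The whole-library counts of each list are to be read against 2.52% lower and 2.58% higher in OVX over all genes tested. Of 52 other serine proteases, 36 were among the gene symbols of the matrices, and 17 were frequent enough to be tested in whole libraries. Of those tested, 1 was lower in OVX and none was higher. That gene was Tmprss11g, of the same HAT/DESC group as Tmprss11b, which went from 60.2 and 76.2 CPM in WT to 1.25 and 3.67 in OVX (log2 fold change -4.71 ± 0.57, SE; edgeR adjusted p = 0.00601). The related Tmprss11d and Tmprss11a, chosen after their values were seen, did not pass (edgeR adjusted p = 0.0648 and 0.0502), at 23.8 and 21.8 CPM in WT against 1.25 and 6.11 in OVX for Tmprss11d. Both were also below their WT levels in each OVX library, with Tmprss11a at 36 and 26 UMIs in WT and at 0 and 1 in OVX.

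Of 40 other inhibitors, 22 were among the gene symbols of the matrices and 9 were tested. Of those tested, 4 were lower and 1 was higher in OVX. Serpinb5, the gene of maspin, a serpin without known protease inhibition, fell from 528 and 697 to 95.1 and 87.4 CPM (-2.89 ± 0.43, SE; edgeR adjusted p = 0.0117). Cst6, which inhibits cysteine and not serine proteases, had 141 and 91 UMIs in WT and 0 and 1 in OVX (edgeR adjusted p = 0.00942). Spink2, of the same Kazal-type family as Spink5 and Spink12, had 63 and 40 UMIs in WT and 0 and 1 in OVX (edgeR adjusted p = 0.0234). Wfdc18, with the whey acidic protein domain found in many protease inhibitors, went from 48.9 and 77.2 CPM to 15.02 and 7.33 (edgeR adjusted p = 0.0266). The one that rose was Wfdc15b, of the same domain family, from 2.06 and 0 to 17.5 and 23.2 (edgeR adjusted p = 0.0418).

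Among 22 receptors and substrates, 21 were among the gene symbols of the matrices, 14 were tested, 3 rose and 2 fell. The risers were Epcam, an adhesion protein that matriptase can cleave, from 152 and 114 to 648 and 795 CPM (2.31 ± 0.43, SE; edgeR adjusted p = 0.0251), its partner Cldn7, a tight-junction claudin, from 11.7 and 13.5 to 103 and 94.1 (edgeR adjusted p = 0.0100), and Scnn1a, a subunit of the epithelial sodium channel that prostasin activates, from 4.12 and 4.15 to 20.03 and 36.7 (edgeR adjusted p = 0.0317). Dsg1b, a desmosomal cadherin of upper squamous layers, had 535 and 144 UMIs in WT and 0 and 1 in OVX (edgeR adjusted p = 0.00368). Il1f9, a cytokine activated by proteolysis, went from 96.9 and 102 CPM to 28.8 and 14.1 (edgeR adjusted p = 0.0276). F2rl1, the protease-activated receptor PAR2, named after its values were seen, stood at 61.4 and 47.1 in WT and 33.8 and 46.4 in OVX and did not pass (edgeR adjusted p = 0.501). The median log2 fold changes were -0.69 for the proteases, -1.01 for the inhibitors and 0.04 for the receptors and substrates, against -0.03 over all genes tested.

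**Figure D4:**
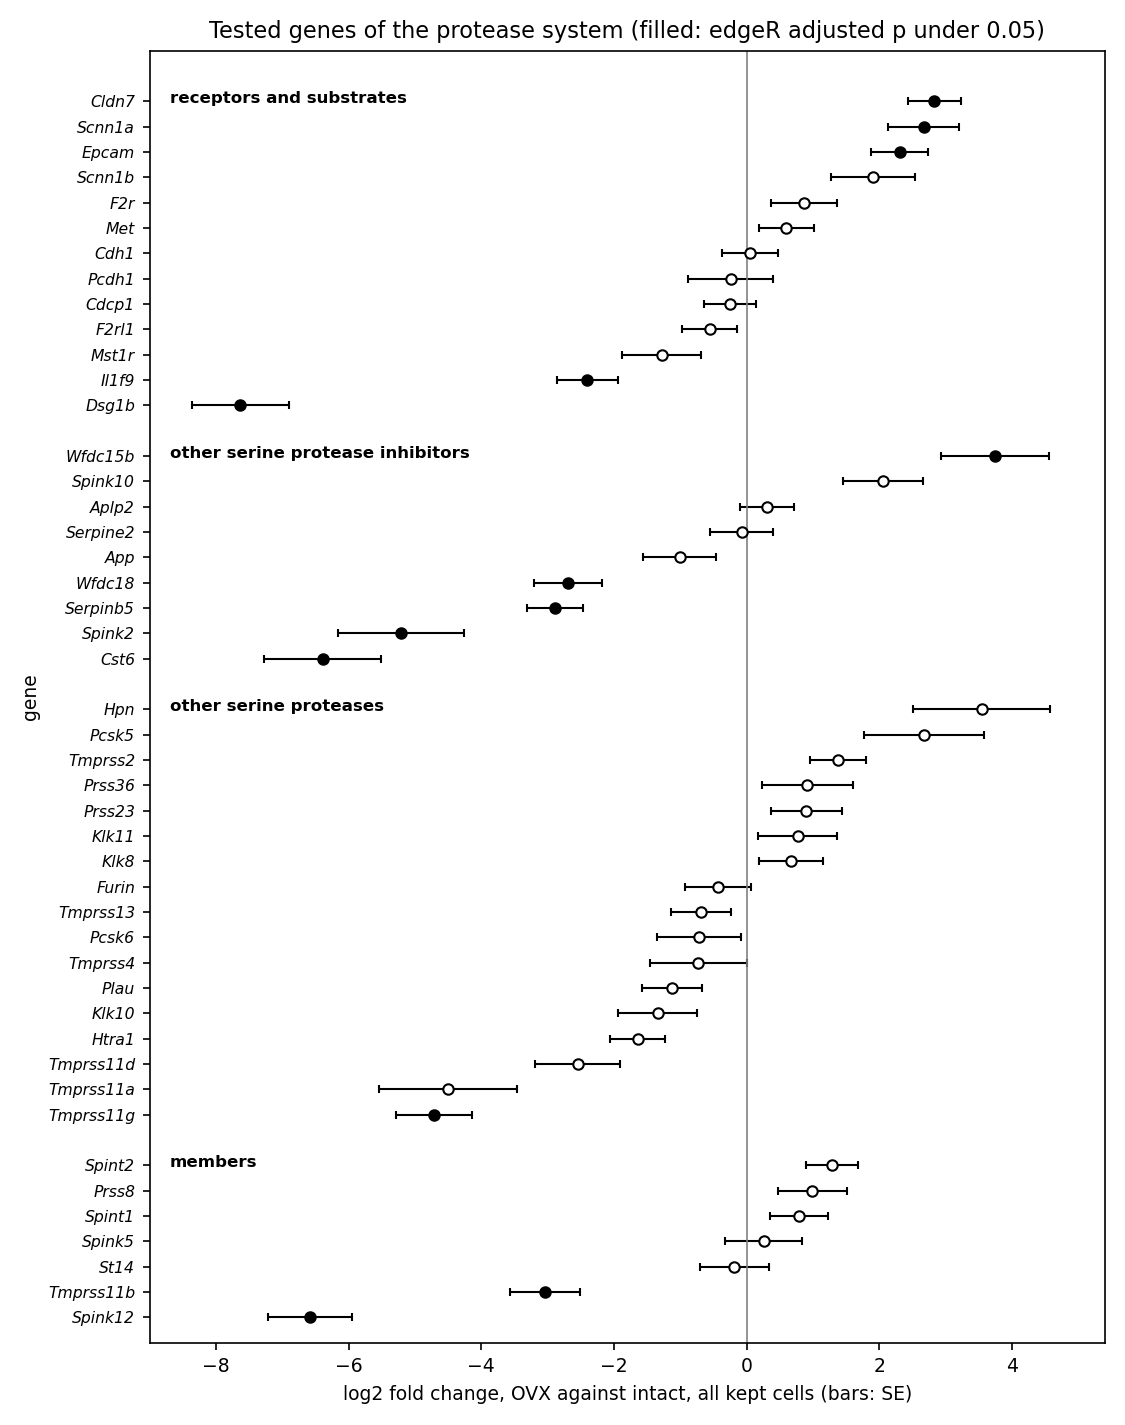
Log2 fold change in OVX against WT over all kept cells for the tested genes of the 7 members and the 3 lists, with SE bars; filled points had an edgeR adjusted p under 0.05. Spink12, Tmprss11b and Tmprss11g lay well to the left of 0, and Cldn7, Scnn1a and Epcam to the right.

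By layer in WT, where 8.16% of all genes tested were higher and 9.95% lower in suprabasal cells, 6 of 12 tested proteases were higher in suprabasal cells and 1 was lower, 3 of 8 inhibitors were higher and 2 lower, and 7 of 14 receptors and substrates were higher and 3 lower. In OVX luminal against basal cells (2.71% of all genes higher, 1.14% lower), 12 proteases and 8 inhibitors were tested. None of these was higher and 1 of each was lower, while 4 of 14 receptors and substrates were higher. Cldn7, Epcam and Scnn1a, named after their values were seen, were among them. In basal cells of OVX against WT (1.13% of all genes higher, 2.43% lower), 4 proteases, 3 inhibitors and 8 receptors and substrates were tested. Tmprss11g, Serpinb5 and Dsg1b were lower and Tmprss2 was higher. Tmprss2, another transmembrane serine protease, named after its values were seen, stood at 11.9 and 11.4 CPM in WT and 60.6 and 73.6 in OVX basal cells (edgeR adjusted p = 0.0363).

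The genes whose levels most resembled each member over the 9 sums of a library and layer were listed by Pearson's r of log2(CPM + 1). The sums share libraries and depth, so the values only describe them. For Spink5 these were Ezr (0.96), Marveld2 (0.96) and Limch1 (0.95), and for Spink12 they were Rbp2 (0.99), Gsto1 (0.96) and Calm4 (0.96), the last itself a marker of the suprabasal gate. For Tmprss11b they were Aldh3b2 (0.98), Chn2 (0.95) and Ppa1 (0.95). St14 was nearest to Atp2b1 (0.95), Nktr (0.93) and Thrap3 (0.91), and Prss8 to Egr1 (0.96), Smagp (0.95) and Deptor (0.95), from few UMIs. Spint1 was nearest to Ank (0.96), Tnfaip2 (0.94) and Dapl1 (0.94), and Spint2 to Tfcp2l1 (0.96), Il33 (0.95) and Id1 (0.95). Among the members themselves, r was 0.78 between Spink5 and Tmprss11b, 0.77 between Spint1 and Spint2, 0.70 between Spink5 and St14, and 0.70 between Spink12 and Tmprss11b.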

How the data were processed

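The members, the marker lists and the pathway lists were chosen with earlier results of these data known. The deposited matrices hold raw UMI counts per gene symbol and cell barcode, 1 matrix per library, not normalized by the authors. Per the submitters' processing notes the build is mm10 and Seurat 2 was used; for the aligner, the annotation and the choice of barcodes the step is not given in the sources used here. Of 10000 barcodes, the 8446 with 200 genes or more and no more than 20% mitochondrial UMIs were kept. No doublet caller was run and no doublets were removed.

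Layers were gated per cell: markers were scaled to 10000 counts, log-transformed, turned into z-scores over all kept cells limited to 3 and averaged per list. A cell went to the list with the highest score if it was above 0, exceeded the second by 0.1, and had at least 2 of its markers (3 for immune or stromal). Counts were summed per library, or per library and layer with at least 20 cells, and tested with edgeR 4.0.16 (R 4.3.3; TMM, filterByExpr, glmQLFTest) with Benjamini-Hochberg adjustment over all genes tested and a threshold of 0.05. Layer comparisons used 1 model with the library as a block. DESeq2 1.42.0, limma 3.58.1, other filters, gates and left-out libraries were alternatives. Named genes are the 7 members, list genes past the threshold in whole libraries (at most 8 per list), and the 3 genes most correlated with each member among those with a mean of at least 20 CPM; others were named after their values were seen. Intervals are exact at 95% (Poisson for levels, Clopper-Pearson for shares), cover counting error only and rest on the totals given. Both tests were also run on simulated counts with a dispersion of 0.126. There the whole-library test recovered 80% of genes changed by 3 on the log2 scale and 9.68% of those changed by 1.5. It made 4 false calls. The WT layer test recovered 87.6% and 13.8%, with 2 false calls. The layer model fitted to the data had a common dispersion of 0.0030, far below the simulated one, so these rates do not describe its calls. Of the symbols, 23603 of 25071 matched GENCODE vM21. Clustering for an alternative used scanpy 1.11.5. Values of 1 list gene are not reported here.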

Additional observations from a re-analysis of the deposited data

Results flagged for a closer look

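The step of Spink5 from basal to suprabasal cells was larger in OVX than in WT in the 3 settings in which 1 model was fitted to both, and is listed because a test of the difference itself passed. The OVX step exceeded the WT step by 1.71 on the log2 scale with no gate margin (edgeR adjusted p = 6.54e-22), by 1.72 with marker z-scores within each library (2.56e-20) and by 1.99 without OVX replicate 1 (1.32e-49). These p-values reflect mostly counting error, the OVX suprabasal cells are few, and OVX basal cells had the lower Spink5 level that enters the step. No such difference passed for Tmprss11b, St14, Spint1 or Spint2 in the same 3 settings. These genes had few counts: under the main gate the pooled OVX suprabasal cells held 2, 3, 3 and 9 UMIs of them, against 459 of Spink5. The larger step thus cannot be called particular to Spink5.

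Members also had UMIs in the barcodes that did not pass the cell filter, above the level that 3 counts would give. Spink5 stood there at 5106 and 2830 CPM in WT libraries 1 and 2, from 21 and 13 barcodes, and at 1602 and 3661 in OVX libraries 1 and 2, from 1427 and 93 barcodes. St14 stood at 36.4 in OVX library 1, Spint1 at 26.0 and 83.2 in OVX libraries 1 and 2, and Spint2 at 161 and 187. No control sample exists for these barcodes, and they entered no comparison.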

How the results depend on the processing

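Leaving out 1 library at a time moved the counts of called genes to 308 to 1884 in whole libraries (587 with all), 14 to 609 in basal cells (217), 208 to 2141 for WT suprabasal against basal cells (1703) and 117 to 352 for OVX luminal against basal cells (362). Where this left 1 library in a condition, that library was assumed to vary like the others. Testing all genes with any count gave 1356 in whole libraries, and limma gave 34 in basal cells. A gate margin of 0.3 gave 98 in basal cells and 183 in OVX luminal against basal cells; z-scores within each library gave 332 and 595. The cause was not tested. On the log2 scale, leaving out 1 library took St14 in whole libraries from -0.74 to 0.73 (reversed without WT replicate 1) and Spink5 from -0.35 to 1.19 (reversed without WT replicate 2, and at -0.24 without OVX replicate 2). St14 in WT suprabasal against basal cells ranged from -0.056 to 0.10, reversed without WT replicate 1, and was -0.0037 with no gate margin. No other member changed direction. Normalization by RLE size factors, DESeq2, limma, the cell filter and the removal of immune and stromal cells changed no member's call in whole libraries.

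Libraries with the same replicate number did not deviate alike: their deviations correlated at -0.57 in whole libraries and -0.26 in basal cells. With 2 libraries per condition the crossed value is the same with the sign turned, so the sign cannot show how the libraries were prepared. WT library 1 and OVX library 2 were also the deeper library of their condition, and the part of depth was not tested. With a replicate block, 517 genes were called in whole libraries and 156 in basal cells, and no member's call changed. A crossed pairing, added after these correlations were seen, called 3489 and 828 genes, among them 2 members in whole libraries (Spint1, Spint2) and 1 in basal cells (Spink5) that did not pass without it.

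OVX against WT within suprabasal or luminal cells, OVX suprabasal against basal cells and the difference of that step between conditions had under 20 cells in a library and were not run with the main gate. Their normalization, filter and 0.3-margin alternatives were not run either. Leiden clusters gave no OVX basal class to compare, with 8 cells in OVX library 1. Depth limits Prss8 in every comparison, and Spink12 and Tmprss11b in OVX layers.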

Other observations

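Within luminal cells, OVX was set against WT with other gates, since the WT libraries had 15 and 17 such cells. The WT cells of the main luminal gate were not alike in keratins to the OVX ones: Krt14 stood at 6613 and 12004 CPM in WT and 1009 and 1351 in OVX, and Krt18 at 108 and 115 against 1197 and 748. The differences that follow are between gated cells and cannot be read as changes within 1 cell class. With marker z-scores within each library, which gave 75 and 23 luminal cells in WT and 166 and 273 in OVX, Spink5 was higher in OVX by 2.13 ± 0.55 on the log2 scale (SE; edgeR adjusted p = 0.0429), Spint2 was higher by 2.02 ± 0.49 (0.0309) and Spink12 fell by 4.31 on the log2 scale (0.00922). With no gate margin, the differences were 2.16 ± 0.56 (0.0876) for Spink5 and 2.80 ± 0.68 (0.0680) for Spint2, which did not pass. In suprabasal cells, none of Spink5, Tmprss11b, St14, Spint1 and Spint2 passed between OVX and WT under either of these gates, and Spink12, which had no UMI in OVX suprabasal cells under the main gate, passed with z-scores within each library (edgeR adjusted p = 0.0189) and not with no margin (0.121).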
